A study of Mus musculus with 12 samples.

Results

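Notch receptors, their ligands and the Hes and Hey genes they switch on were followed through 12 RNA libraries of mouse Fallopian tube clones. The 10 genes were fixed by name, as 3 receptors (Notch1, Notch2 and Notch3), 4 ligands (Jag1, Jag2, Dll1 and Dll4) and 3 target genes (Hes1, Hey1 and Heyl), and each matched 1 of the 35509 rows of the count table by its symbol. Every mouse carried the MADM RG;GR alleles on a mixed background, was labelled MADM wild type, was untreated and was 4 weeks old. MADM (mosaic analysis with double markers) colours a cell and its descendants after recombination between chromosomes, which lets a clone be seen and sized. From each of 6 mice, 200 cells of large clones and 200 cells of small clones were cut by laser from the distal tube and pooled, giving 6 libraries per clone size, 1 of each from every mouse. The size limit between large and small clones and the gene that drove recombination are not given in the sources used here.

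Notch is a receptor that is cut when a ligand on a neighbouring cell pulls on it. The freed intracellular part enters the nucleus, joins the DNA-binding protein Rbpj and a Mastermind coactivator, and turns on genes of the Hes and Hey families, which encode repressors. In airway and tubal epithelium, active Notch favours the secretory fate over the multiciliated fate, and cells with low Notch activity switch on Gmnc, Mcidas and Foxj1. Notch3 and Heyl are best known from mural cells of vessels, and Dll4 and Notch4 from endothelium.

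The 3 target genes encode related repressors that could in principle share reads, and the coding ends of Hes1 and Heyl are shown because they differ. The Hes1 protein carries the WRPW tetrapeptide that recruits Groucho corepressors. The sequences below are from the GENCODE M21 transcripts, 5′ to 3′ and up to the stop codon, with the codons of the tetrapeptide in capitals.
Hes1: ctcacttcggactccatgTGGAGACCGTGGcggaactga
Heyl: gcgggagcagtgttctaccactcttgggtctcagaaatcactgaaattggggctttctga
These coding sequences hold 282 and 326 codons. The tetrapeptide was not found in that of Heyl, so no letters are in capitals there. The expected counts of Hes1, Hey1 and Heyl were whole numbers in all 12 libraries, which shows no sign of reads shared with other genes. Among the other members, Notch1 had counts that were not whole in 4 libraries and Notch3 in 1.

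Libraries held 3057979 to 4227129 expected counts each, and a limit of 3 counts equalled 0.585 to 1.33 CPM (counts scaled to library size, with TMM factors). The 10 genes together held 0.0094% of counts. Libraries fell into 2 sets by the share of counts on chemoreceptor genes, at 0.841% to 4.17% in 7 and 7.86% to 11.02% in 5, which were the large-clone libraries of mice 1, 2 and 6 and the small-clone libraries of mice 3 and 6. The summed level of 6 epithelial markers was 3834 to 8324 CPM in the 7 and 255.2 to 1265 CPM in the 5. Epcam, an epithelial adhesion gene, and Ovgp1, a secretory product of the tube, had counts in every library, and the secretory-cell factor Pax8 had none in 2. In pooled cells, fewer cells of a type and less RNA per cell cannot be told apart.

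Compared per length of exon, 6 members had higher means and 4 were close to 0. Mean levels over the 12 libraries were 2.58 ± 2.93 CPM per kb for Jag1, 2.52 ± 3.13 for Notch1, 2.22 ± 1.67 for Hes1, 1.84 ± 1.82 for Notch2, 1.82 ± 2.51 for Hey1 and 1.08 ± 1.92 for Heyl (SD, n = 12 libraries). The remaining 4 genes lay lower, at 0.0941 ± 0.149 CPM per kb for Jag2, 0.0845 ± 0.131 for Dll4, 0.0467 ± 0.0483 for Notch3 and 0.0215 ± 0.0586 for Dll1 (SD, n = 12). Other than Heyl and Jag2, neighbours in this order differed by less than the SD of either. Heyl and Jag2 differed by less than the SD of Heyl, which varied widely between libraries, but by more than that of Jag2. Merged exons of GENCODE M21 served as lengths, and poly(A) amplification may cover long transcripts unevenly, which was not tested.

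**Figure D1:**
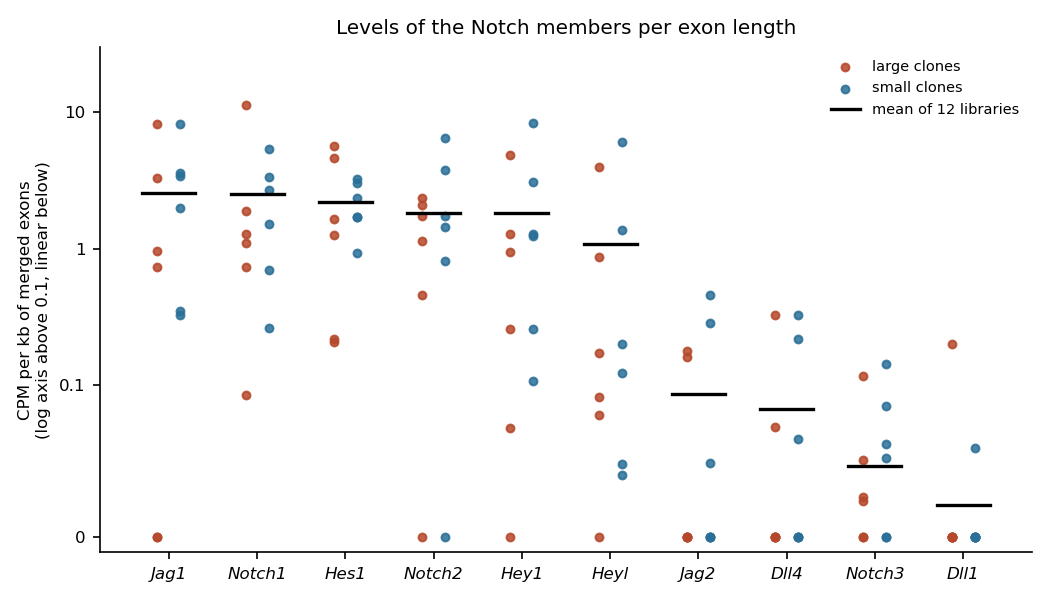
Level of each member in CPM per kb of merged exons (log axis above 0.1, linear below), with 1 point per library of large (red) or small (blue) clones and a bar at the mean of 12. Jag1, Notch1, Hes1, Notch2, Hey1 and Heyl have means of 1.08 to 2.58, and Jag2, Dll4, Notch3 and Dll1 of 0.0215 to 0.0941.

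Between clone sizes, no member passed the threshold. A filter on low counts kept 10848 genes and 5 members, namely Notch1, Notch2, Jag1, Hes1 and Hey1, and left Notch3, Jag2, Dll1, Dll4 and Heyl untested. In the quasi-likelihood test of edgeR, 0 of the 5 reached an adjusted p below 0.05, against 0% of all genes tested, and each stood at an adjusted p of 0.9998. At an unadjusted p under 0.05 there were also 0 of 5, against 2.54% of all genes tested (1.44% higher and 1.1% lower in large clones), and DESeq2 gave 0 of the 5 members at either threshold. Log2 fold changes of large over small clones were positive for 2 of the 5 and negative for 3, with a median of -0.43. All genes tested had a median of 0.06, and 53.2% of them were positive. The narrowest 95% interval, that of Hes1, ran from -1.66 to 1.79 and the widest, that of Jag1, from -3.13 to 2.27, so large changes in either direction lay inside them and the data do not show that levels were alike. The ranges of the 2 clone sizes overlapped for all 10 members, whereas 0.0645% of all genes tested had ranges without overlap.

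**Figure D2:**
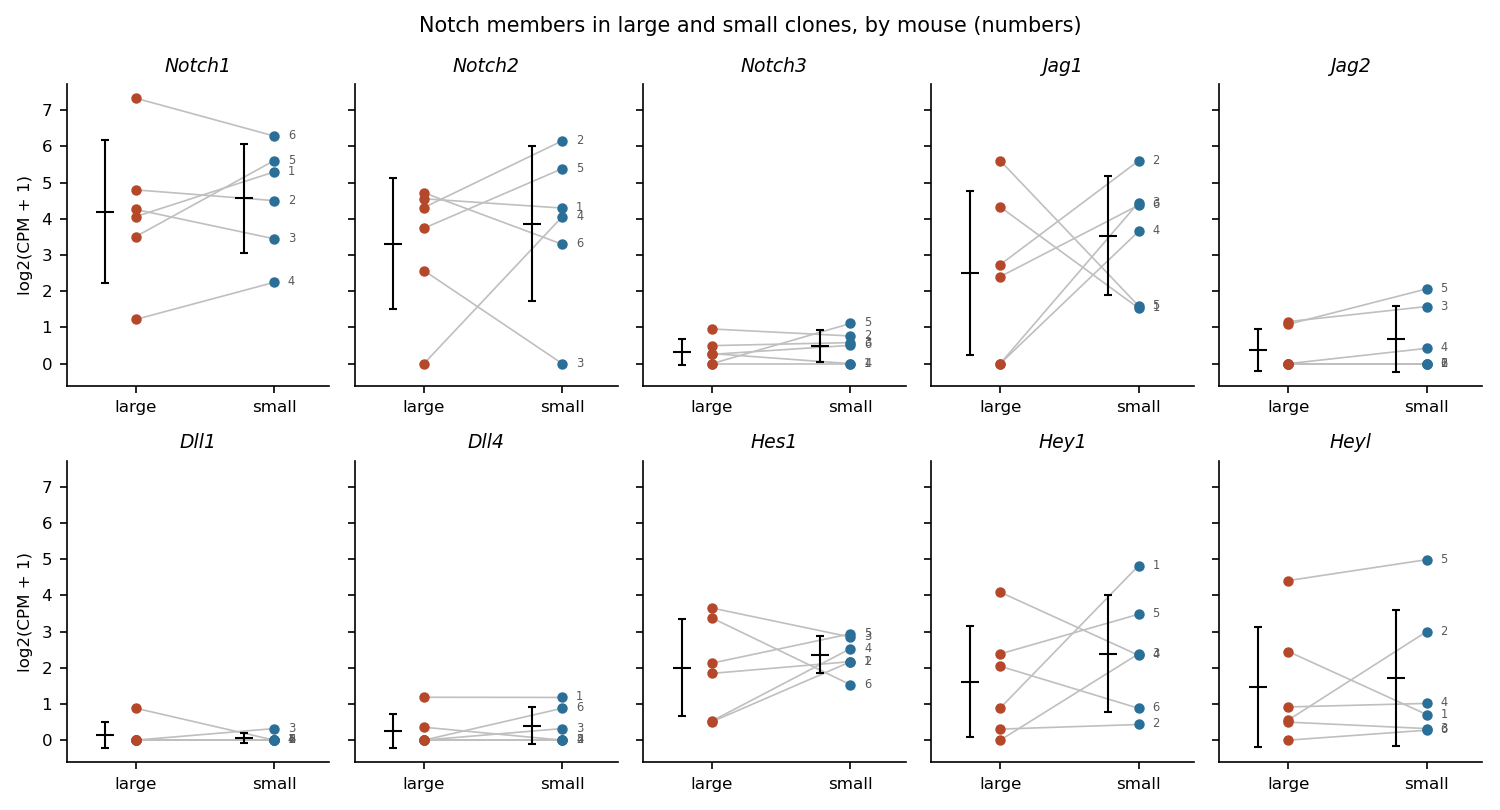
Level of each member as log2(CPM + 1) in large (red) and small (blue) clones, with grey lines joining the libraries of a mouse, mouse numbers at the right, and black bars for the mean and SD of 6 libraries. The groups overlap for every member, and Notch1 is highest in both libraries of mouse 6, Heyl in both of mouse 5.

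Notch1 (ENSMUSG00000026923, chromosome 2, 26347915 to 26406675, minus strand) was the receptor with most counts, 1859 in all, and was detected in every library. In large clones its level had a minimum of 1.33, a median of 16.9 and a maximum of 160.1 CPM. In small clones these values were 3.74, 29.97 and 77.1 CPM. The ranges overlapped, and the group means were 38.7 ± 60.04 and 33.1 ± 27.2 CPM (SD, n = 6 each). The log2 fold change was 0.23 (SE 0.98, interval -1.87 to 2.32), with Notch1 higher in large clones in 3 of 6 mice. Mouse 6 stood highest in both clone sizes and mouse 4 lowest in both. The large clones of mouse 6 held 44.2% of all Notch1 counts, and without that library the log2 fold change was -1.22. With mouse as a block it was -0.42 (adjusted p of 1 in edgeR).

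The libraries with high Notch1 levels differed in their cell markers. In the large and small clones of mouse 6 the 6 epithelial markers summed to 255.2 and 728.2 CPM, the lowest sums of the 12 libraries. The 9 endothelial markers summed to 472.6 and 225.7 CPM there, the first being the highest of all libraries. The large clones of mouse 4 had an endothelial sum of 463.3 CPM, close to that maximum, with the lowest Notch1 level, 1.33 CPM. After mouse 6, the next highest Notch1 levels were 47.8 and 38.3 CPM in the small clones of mice 5 and 1. Their epithelial sums were 5897 and 4351 CPM. The small clones of mouse 4, with an epithelial sum of 8142 CPM, had 3.74 CPM of Notch1. Epithelial sums were 868.95, 1256 and 1265 CPM in the large clones of mice 1 and 2 and the small clones of mouse 3. Notch1 stood at 15.7, 26.8 and 9.92 CPM in these. In the 5 libraries of higher chemoreceptor share Notch1 averaged 57.9 ± 62.96 CPM and ran from 9.92 to 160.1 CPM. In the other 7 it averaged 20.2 ± 17.4 CPM and ran from 1.33 to 47.8 CPM (SD over libraries). Over all libraries the endothelial sum ran from 154.2 to 472.6 CPM in large clones and from 89.8 to 298.1 CPM in small clones. The 6 tested markers of that list were all higher in large clones, as were 53.2% of all genes tested. In edgeR 1 of them had an unadjusted p under 0.05 and 0 passed after adjustment. The untested markers Tek, Eng and Cdh5 had lower means in large clones (0, 0.106 and 0.271 CPM) than in small clones (2.10, 2.84 and 0.316 CPM). Pecam1, an adhesion gene of endothelium, was found in all 12 libraries and was highest in the large clones of mouse 6 at 141 CPM, while Cdh5, the endothelial cadherin, had 0 counts in 9 of 12. The expected counts of Pecam1 and of Vwf, another marker of the list, were not whole in any library. The part of these markers in the Notch1 level was not tested.

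Notch2 (ENSMUSG00000027878, chromosome 3, 97920843 to 98057677, plus strand) had 861 counts and was absent from 2 libraries, the large clones of mouse 4 and the small clones of mouse 3. In large clones its lowest, median and highest levels were 0, 15.6 and 25.3 CPM, and in small clones 0, 17.2 and 70.3 CPM. The highest level was in the small clones of mouse 2, and the ranges overlapped. Means were 13.996 ± 10.05 and 25.7 ± 25.7 CPM (SD, n = 6 each), and the log2 fold change was -0.87 (SE 1.18, interval -3.39 to 1.65), with 3 mice in each direction.

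Within the sets of libraries, Notch2 took opposite directions. Among the 7 libraries of lower chemoreceptor share, large clones had 0 to 12.4 CPM and small clones 15.6 to 70.3 CPM, without overlap, and the log2 fold change was -2.67 (SE 1.41). Among the 5 of higher share, large clones had 18.8 to 25.3 CPM and small clones 0 and 8.83 CPM, again without overlap, and it was 2.33 (SE 1.77). Of all genes tested, 4.36% had ranges without overlap in the 7, 18.8% in the 5, and 0.424% in both with opposite directions. The difference between the sets was 4.95 log2 units (SE 2.37) as an interaction in edgeR, with an unadjusted p of 0.0577 and an adjusted p of 0.729, and 0 genes passed that test, with 6.86% at an unadjusted p under 0.05. The interaction was chosen after these values had been seen, and the sets are defined from the libraries and not by the study. Each set holds few libraries, with 2 of small clones in the 5.

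**Figure D3:**
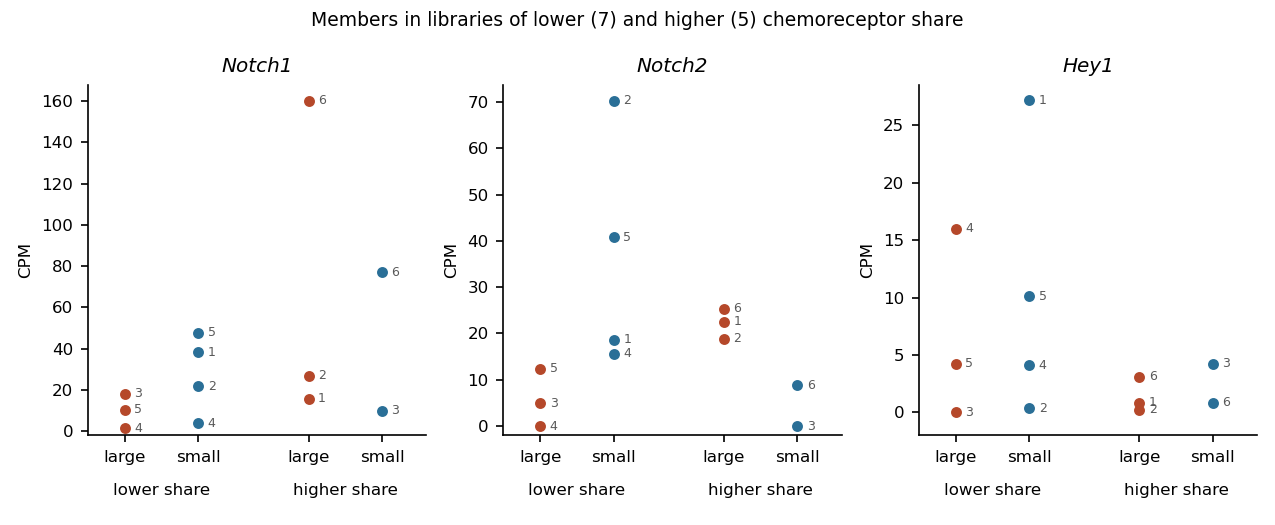
CPM of Notch1, Notch2 and Hey1 in large (red) and small (blue) clones, apart for the 7 libraries with the lower and the 5 with the higher chemoreceptor share, with mouse numbers beside the points. Notch2 is lower in large clones on the left (0 to 12.4 against 15.6 to 70.3 CPM) and higher on the right (18.8 to 25.3 against 0 and 8.83 CPM).

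Notch3 (ENSMUSG00000038146, chromosome 17, 32339794 to 32385826, minus strand) was near the limit of detection. It had 17 counts in 8 of 12 libraries and at most 1.16 CPM, and 2 libraries lay above 3 counts. Large clones had 7 and small clones 10 of these counts. The other receptor of the family, Notch4, had 55 counts, lay at 0 in 6 libraries, and did not pass the filter either.

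The summed level of the 3 receptors was therefore nearly all Notch1 and Notch2. It ran from 1.33 to 185.6 CPM in large clones and from 10.4 to 92.6 CPM in small clones, with means of 53.04 ± 66.8 and 59.2 ± 36.8 CPM (SD, n = 6 each). In 2 of 6 mice, mice 3 and 6, the large clones had the higher sum.

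Among the ligands, Jag1 (ENSMUSG00000027276, chromosome 2, 136923376 to 136958564, minus strand) held 667 counts. It encodes Jagged1, a ligand of the Serrate type. Large clones had a lowest, median and highest level of 0, 4.97 and 47.8 CPM, with 0 counts in mice 3 and 4. Small clones had 1.90, 15.7 and 47.5 CPM. The 2 highest libraries came from either clone size, the large clones of mouse 5 and the small clones of mouse 2, and the ranges overlapped. Means were 12.8 ± 18.5 and 17.3 ± 16.9 CPM (SD, n = 6 each), and the log2 fold change was -0.43 (SE 1.26, interval -3.13 to 2.27), with Jag1 lower in large clones in 4 of 6 mice. With mouse as a block it was -2.20 (SE 2.19, adjusted p of 1 in edgeR), without mouse 5 it was -1.82, and without mouse 2 it was 0.31. Within mice, the libraries of mouse 5 differed most, at 47.8 CPM for the large and 2.03 CPM for the small clones.

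The other ligands were at or under the limit of 3 counts in 9 or more of the 12 libraries. Jag2 (ENSMUSG00000002799, chromosome 12, 112871439 to 112893396, minus strand), the second Jagged ligand, had 27 counts, 7 in large and 20 in small clones, and was at 0 in 7 libraries. Dll4 (ENSMUSG00000027314, chromosome 2, 119156265 to 119166443, plus strand), the Delta ligand of endothelial tip cells, had 16 counts and was at 0 in 7 libraries. Dll1 (ENSMUSG00000014773, chromosome 17, 15587616 to 15597134, minus strand), the Delta ligand of many epithelia, had 4 counts in the whole series, 3 of them in the large clones of mouse 5. No library had more than 3.18 CPM of any of these genes. The sum of the 4 ligands, nearly all Jag1, ran from 0 to 49.998 CPM in large and 3.16 to 47.5 CPM in small clones. Dll3, a Delta relative that acts inside the cell, lay between 1.05 and 3.97 CPM, with more than 3 counts in 11 of 12 libraries. Its expected counts were not whole in any library, so reads may have been shared with other sequences, which was not tested. The level of Dll3 is therefore uncertain, and it did not pass the filter.

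Hes1 (ENSMUSG00000022528, chromosome 16, 29883202 to 29886614, plus strand), the best known direct target of Notch in epithelia, was detected in all 12 libraries with 194 counts. Large clones had a lowest, median and highest level of 0.424, 2.98 and 11.5 CPM, and small clones 1.89, 4.13 and 6.66 CPM. All small-clone values lay inside the range of the large clones. Means were 4.62 ± 4.71 and 4.41 ± 1.81 CPM (SD, n = 6 each), and the log2 fold change was 0.06 (SE 0.81), and 4 of 6 mice had less Hes1 in large clones. Its sign turned when a block for mouse was fitted (-0.64) and when mouse 6 was left out (-0.52). Across libraries Hes1 was the steadiest member, with a coefficient of variation of 75.4% against 98.7% to 272% for the others.

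Hey1 (ENSMUSG00000040289, chromosome 3, 8728419 to 8732316, minus strand), a target in epithelium and vessels, had 227 counts in 11 libraries. In large clones the lowest, median and highest levels were 0, 1.98 and 15.99 CPM, and in small clones 0.35, 4.15 and 27.2 CPM. The small clones of mouse 1 alone held 37.9% of its counts. Means were 4.07 ± 6.08 and 7.80 ± 10.1 CPM (SD, n = 6 each), and the log2 fold change was -0.95 (SE 1.18, interval -3.48 to 1.58), lower in large clones in 4 of 6 mice. Without mouse 1 it was 0.14, and without mouse 4, whose large clones held the highest level of that group, it was -2.33. Hey1 averaged 8.85 ± 9.87 CPM in the 7 libraries of lower chemoreceptor share, where it ran from 0 to 27.2 CPM. In the other 5 it averaged 1.85 ± 1.72 CPM and ran from 0.235 to 4.22 CPM, so the sets overlapped. This difference between the sets was not tested.

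Heyl (ENSMUSG00000032744, chromosome 4, 123127349 to 123143668, plus strand) did not pass the filter and lay above 3 counts in 4 libraries. Mouse 5 accounted for most of its signal, with 20.2 CPM for the large and 30.7 CPM for the small clones, together 77.1% of 231 counts. In the other mice the highest levels were 4.46 CPM in large clones and 6.99 CPM in small clones. The 8 smooth muscle and mural markers summed to 131.2 and 123.3 CPM in the libraries of mouse 5, within the range of 17.1 to 312.5 CPM over all libraries, and the highest sum, in the small clones of mouse 3, came with 0.248 CPM of Heyl. Of these markers, Acta2, the smooth muscle actin, was highest in the same library as Heyl, at 68.6 CPM in the small clones of mouse 5 (65.8% of its counts), reached 8.99 CPM in the large clones of that mouse, the highest of its group, and was at 0 in 5 libraries. Tagln was highest in the large clones of mouse 5, and the rest of these markers were highest in other mice. Rgs5 was highest in the small clones of mouse 3, and Pdgfrb and Myh11 in the large clones of mouse 3. Cspg4 was highest in the large and Des in the small clones of mouse 1, and Cnn1 in the large clones of mouse 2. Myh11 was at 0 in 3 libraries. The part of mural cells in the Heyl level was not tested. Hes5, another direct target best known in neural tissue, lay at 0 in 7 libraries, with 60.9% of its 69 counts coming from large clones of mouse 3, and Hey2 lay at 0 in 6 libraries.

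Without a filter on low counts, the 5 members left out above also missed the threshold, with an adjusted p in edgeR between 0.798 for Dll1 and 0.949 for Dll4.

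The rest of the pathway was read from 66 genes in 6 lists, all of them in the table, of which 46 were tested. In edgeR 0 of the 46 had an adjusted p under 0.05. Of them 21 were higher and 25 lower in large clones, with a median log2 fold change of -0.15, and 1 had an unadjusted p under 0.05, or 0 with mouse as a block. That gene was Sox9, a transcription factor of epithelial progenitors that Notch can induce, named here after its value was seen. Mean levels of Sox9 were 52.7 ± 37.3 in large-clone and 15.0 ± 8.94 CPM in small-clone libraries (SD over 6). Its log2 fold change was 1.81 (SE 0.70), with an unadjusted p of 0.0215 and an adjusted p of 0.9998 in edgeR, and 6 of 6 mice showed this direction. Its expected counts were not whole in any of the 12 libraries. Of all genes tested, 1.44% were higher in large clones at that unadjusted threshold and 2.21% had the same direction in 6 of 6 mice. With mouse as a block the log2 fold change of Sox9 was 1.55 (unadjusted p of 0.0547 in edgeR).

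Enzymes that modify and cut the receptor summed over 14 genes to 517.5 ± 77.9 CPM on average in large-clone and 539.96 ± 88.5 CPM in small-clone libraries (SD over 6), with 7 of 13 tested genes higher and 6 lower. Lfng, the Fringe enzyme that tunes ligand choice, averaged 8.31 ± 6.31 CPM in large-clone libraries and 5.19 ± 4.74 CPM in the others, with 0.67 (SE 0.87) as log2 fold change. Pofut1, which adds the fucose that Fringe extends, had a log2 fold change of 1.08 (SE 1.14). The sheddase Adam10 had 0.54 (SE 1.21). For Ncstn, a gamma-secretase subunit, it was 0.30 (SE 0.69). None of these 4 passed, each with an adjusted p of 0.9998 in edgeR.

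The nuclear list of 16 genes summed to 641.8 ± 328.3 CPM on average in large-clone and 767.6 ± 313.9 CPM in small-clone libraries (SD over 6). Rbpj was detected in every library, with means of 8.80 ± 6.72 CPM for large and 11.9 ± 8.25 CPM for small clones (SD over 6 libraries), and 5 of 6 mice had less in large clones, with a log2 fold change of -0.43 (SE 0.81). The expected counts of Rbpj were not whole in any library, so its signal may be partly shared with other sequences, which was not tested. The coactivator Maml1 lay at 0 in 7 libraries, while its relatives Maml2 and Maml3, named after their levels were seen, had counts in all 12, at means of 38.6 and 142.1 CPM. The counts of Maml3 were not whole in any library. Of 13 tested genes of the nuclear list, 4 were higher and 9 lower in large clones, with a median log2 fold change of -0.32. None passed.

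Of the remaining lists, ligand endocytosis had 3 tested genes higher and 3 lower, and the negative regulators 3 higher and 4 lower. Mib1, the ubiquitin ligase that lets ligands pull, had a log2 fold change of 0.65 (SE 1.29). Fbxw7, which marks the freed Notch fragment for destruction, had -0.80 (SE 0.76), and Dtx4, a Deltex ligase, -0.16 (SE 0.87), each with an adjusted p of 0.9998 in edgeR. Numb, an inhibitor inherited unequally at division, averaged 7.47 ± 8.38 CPM over large-clone and 1.66 ± 1.62 CPM over small-clone libraries (SD over 6) and did not pass the filter. Nrarp, a feedback inhibitor induced by Notch, had 1 count in the whole series. Other Hes, Hey and target genes had 4 of 6 tested genes higher and 2 lower, and other receptors and ligands had 1 tested gene, which was lower.

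**Figure D4:**
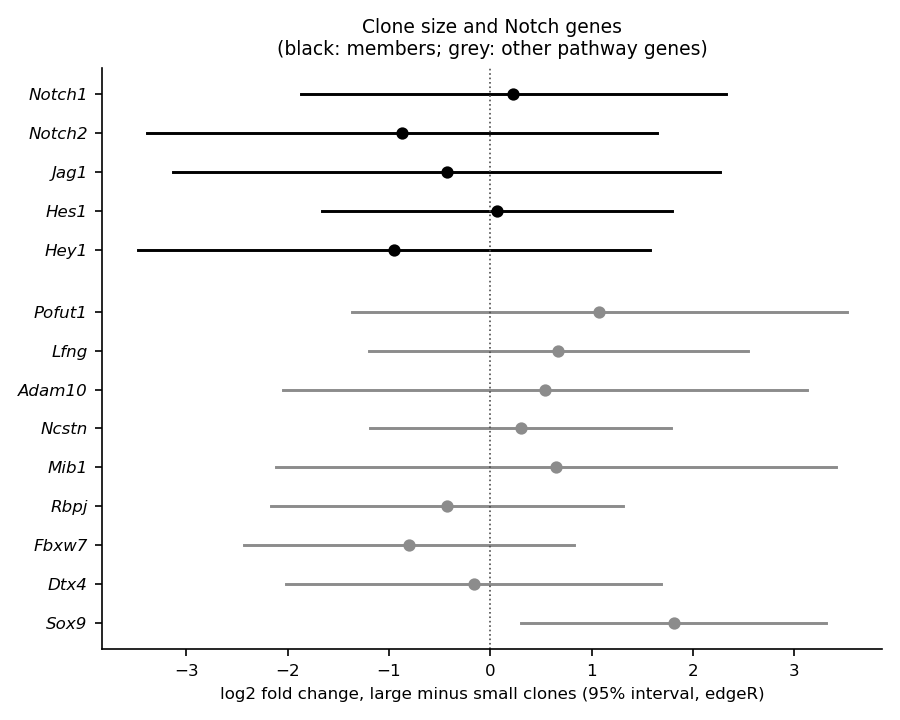
Log2 fold change of large over small clones with its 95% interval from edgeR, for the 5 tested members (black), 8 other pathway genes fixed by name and Sox9 (grey), with a dotted line at 0. The intervals of all genes but Sox9 include 0, and none passed after adjustment over 10848 genes.

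Fate genes downstream of the Notch choice were set beside the members. Foxj1, the driver of motile cilia, averaged 3.51 ± 3.09 CPM over large-clone and 8.43 ± 10.8 CPM over small-clone libraries, and Mcidas, which starts centriole amplification, 20.3 ± 28.1 and 37.9 ± 54.9 CPM (SD over 6). Gmnc, which acts before Mcidas, lay at 0 in 3 libraries and did not pass the filter. On the secretory side, Pax8 had 20.7 ± 18.2 and 18.8 ± 19.5 CPM and Ovgp1 1378 ± 1337 and 2999 ± 2956 CPM (SD over 6). Each tested gene of these had an adjusted p of 0.9998 in edgeR. Of 10 tested ciliated-cell markers 7 were lower in large clones, and of 5 tested secretory markers 3 were, where 53.2% of all genes tested were higher. The untested ciliated markers Gmnc and Ccno had higher means in large clones (3.41 and 2.41 CPM) than in small clones (0.681 and 0.600 CPM). The untested secretory markers Sox17 and Muc16 had lower means in large clones (0.855 and 0.279 CPM) than in small clones (1.65 and 7.07 CPM). Markers of other cells included Ptprc, found on leukocytes, which averaged 23.3 ± 25.2 CPM over large-clone and 4.097 ± 6.80 CPM over small-clone libraries (SD over 6), with an unadjusted p of 0.0864 and an adjusted p of 0.9998 in edgeR.

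For the 3 members with the highest mean CPM, the genes of most similar profile were taken as those with the smallest root mean square difference in centred log2(CPM + 1) over the 12 libraries. For Notch1 they were Kirrel2 (0.708) and Gatad1 (0.729), for Notch2 Prpf8 (0.793) and Lpcat1 (0.799), and for Jag1 Gm12366 (0.861), a processed pseudogene, and Fbh1 (0.870). The median over all tested genes was 2.06 for Notch1, 2.23 for Notch2 and 2.28 for Jag1. Other members were not among the nearest of the 10848 tested genes, though some differed by less than these medians. Notch1 ranked 672 by likeness to Notch2 (1.64), and Hes1 ranked 1201 by likeness to Notch1 (1.51) and 5046 by likeness to Jag1 (2.23). Hey1 ranked 7299 by likeness to Notch1 and 8495 by likeness to Notch2. A flat profile would differ by 1.61 from Notch1 and by 1.83 from Notch2. The libraries share their split by chemoreceptor content and their mice, so these profiles are a description of 12 libraries only.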

How the data were processed

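Per the labels, laser-cut cells went through proteinase K digestion and poly(A) amplification before Nextera XT preparation. Expected counts, 1 value per gene and library, are what the authors deposited, and 22.7% of entries were not whole. Among genes named above, they were not whole in any library for Mcidas and Ncstn. For Ovgp1 and Dtx4 they were not whole in 11 libraries, and for Pofut1 in 10. The submitters' processing notes name RSEM, Bowtie2 and GRCm38, without versions. Printed coordinates come from that table. Of 35491 genes, 2.96%, and 0 of the 10 members, start where GENCODE M21 (GRCm38) places them, so the table follows another annotation or build that it does not name. No member overlaps another gene of the table. 1 gene without a symbol, with 0.133% of counts, was kept under its Ensembl identifier.

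Expected counts were rounded and tested with edgeR 4.0.16 (quasi-likelihood, TMM, filterByExpr, Benjamini-Hochberg over 10848 genes at 0.05) in R 4.3.3, with no mouse term. Standard errors and intervals are derived from the F statistic. Both libraries of a number come from 1 mouse per the labels; deviations from the group means correlated at -0.019, -0.0071, -0.38, 0.28, 0.52 and 0.64 for mice 1 to 6, and the fit with a block for mouse is given as an alternative. DESeq2 1.42.0 and limma 3.58.1, other scalings and filters, the chemoreceptor share as covariate, each set of libraries alone, and leaving out each mouse or library were further alternatives. Counts simulated for this comparison over 10848 genes held 50 changed genes of each size. At 2-fold and at 4-fold edgeR found 0, at 8-fold it found 1, and at 16-fold it found 8. The limit of 3 counts allows for counting error alone. Amplified reads that carry no molecular identifiers do not stand for separate molecules, so the limit leaves out error from amplification.

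The members, lists, named genes, similarity rule and alternatives were chosen with earlier results of these data known. The named genes were the 10 members, 16 other pathway genes, 11 cell markers and the most similar genes, whatever their values; 1 of the 16 is not reported here. The marker Tp73 was read under its table symbol Trp73. The marker lists covered ciliated, secretory, epithelial, endothelial, smooth muscle and mural, fibroblast, immune and red blood cells. Figures were drawn with matplotlib 3.10.9.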

Additional observations from a re-analysis of the deposited data

Results flagged for a closer look

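Each member and each summed level was searched, in each clone size, for a library far from the rest of its group, by the gap to the nearest library as a share of the range (Dixon's 95% limit for 6 values). Of 26 searches 9 stood out, where chance gives about 1.3 for values without skew. Many of these levels are skewed and near 0, so the 9 cannot be read as an excess over that number. With 5 libraries of a group at 0, as for Dll1, any count stands out. The receptor sum also repeats the Notch1 value.

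Notch1 in the large clones of mouse 6 had 160.1 CPM, against 26.8 CPM in the next library, a gap of 0.839 of the range, and the receptors summed to 185.6 CPM there against 46.6 CPM, a gap of 0.754. Hey1 had 15.99 CPM in the large clones of mouse 4 against 4.21 CPM, a gap of 0.737, and 27.2 CPM in the small clones of mouse 1 against 10.1 CPM, a gap of 0.636. Heyl stood apart in both libraries of mouse 5, at 20.2 CPM in large clones against 4.46 CPM, a gap of 0.780, and 30.7 CPM in small clones against 6.99 CPM, a gap of 0.777. Dll4 had 1.27 CPM (6 counts) in the large clones of mouse 1. Dll1 had 0.843 CPM (3 counts) in the large clones of mouse 5 and 0.248 CPM (1 count) in the small clones of mouse 3, with 0 in all others, which is within the limit of 3 counts.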

How the results depend on the processing

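Across 31 alternatives, 1 of them without any member left to test (at least 10 counts in every library), 0 members passed at an adjusted or an unadjusted p under 0.05. Genes with an adjusted p under 0.05 numbered 5 in DESeq2 and 43 in DESeq2 with the replicate block, and 0 elsewhere. The 275 genes at an unadjusted p under 0.05 became 535 in DESeq2, 1134 in DESeq2 with the replicate block, 910 in limma with quality weights, 2880 with no filter, 127 with at least 10 counts in every library, 524 with the chemoreceptor share as covariate, 486 with that and the replicate block, 560 in the 7 libraries of lower share, 685 in the other 5, and 180 (without mouse 4) to 492 (without mouse 3) when a mouse or library was left out, with 442 without the large clones of mouse 5 and 425 without the small clones of mouse 6. Other pathway genes at that threshold (1) numbered 0 with the replicate block, 0 with the share and the block, 2 with the share, 3 with no filter, 5 each in DESeq2 with the block, in limma and in the 5 libraries, and 0 to 3 when a mouse or library was left out (0 without mouse 2, mouse 4 or the large clones of mouse 1 or 2, 2 without the large clones of mouse 3 or 6, 3 without mouse 3).

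Hey1 kept its direction in 29 of 30 alternatives, Notch2 in 28, Jag1 in 27, Notch1 in 21 and Hes1 in 17. With the replicate block, the log2 fold change of Notch1 was -0.42 and that of Hes1 -0.64; in DESeq2 with the block -0.41 and -0.67; in limma -0.12 and -0.92, with Fbxw7 at 0.27. With the chemoreceptor share as covariate Notch1 was -0.72 and Foxj1 0.13. With the share and the block, Notch1 was -0.20, Notch2 0.74, Hes1 -0.31, Mib1 -0.24, Foxj1 0.27 and Mcidas 0.0074. Hes1 was -0.0097 with unrounded counts. In the 7 libraries Notch1 was -1.60, Jag1 0.047, Adam10 -1.47, Dtx4 0.78 and Pax8 -0.26. In the 5, Notch2 was 2.33, Hes1 -0.040, Mib1 -0.19, Ncstn -0.17, Ovgp1 0.45 and Rbpj 1.03. Leaving out a mouse or library gave -1.22 to 0.66 for Notch1, -1.82 to 0.31 for Jag1, -0.52 to 0.29 for Hes1, -2.33 to 0.14 for Hey1, -0.14 to 1.08 for Adam10, -1.11 to 0.064 for Dtx4, -1.01 to 2.79 for Mib1, -0.29 to 0.85 for Pax8 and -2.14 to 0.20 for Mcidas. The cause of these shifts was not tested.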

Other observations

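Hes6, a Hes relative that antagonises Hes1, was not among the 10 genes and was picked out here after its values were seen. It had 108.9 CPM on average in the 7 libraries of lower chemoreceptor share and 3.01 CPM in the other 5, with means of 70.6 ± 79.4 CPM over large-clone and 59.02 ± 51.3 CPM over small-clone libraries (SD over 6). Its level per kb of exon, 35.8 CPM, was above that of every member. The 12 ciliated-cell markers summed to 1049 to 4331 CPM in the 7 libraries and 172.3 to 437.7 CPM in the 5. This split was not particular to them. Secretory markers summed to 1325 to 8839 CPM in the 7 and 468.5 to 1143 CPM in the 5. Epithelial markers summed to 3834 to 8324 CPM and 255.2 to 1265 CPM. The part of any of these cells in the Hes6 level was not tested.

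Fibroblast markers summed to 15.8 to 521.1 CPM in large and 37.1 to 167.6 CPM in small clones, immune markers to 12.4 to 252.2 and 6.80 to 104.9 CPM and red blood cell markers to 200.4 to 5928 and 33.0 to 2137 CPM. Their part in the levels of the Notch genes was not tested.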
